A study of Mus musculus with 6 samples.

Results

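The phagocyte NADPH oxidase is the enzyme complex with which macrophages, monocytes and neutrophils make superoxide. The 5 genes described here encode its subunits Cybb, Cyba, Ncf1, Ncf4 and Rac2, and were picked by gene symbol, with earlier results of these data known, so their counts below are no independent evidence. They are 5 of the 21780 genes in the count table, and all 5 were among the 14429 protein-coding genes that passed the filter on low counts. The chaperone Cybc1 and the GTPase Rac1 are described beside them for comparison. RNA was sequenced from viable CD45+CD11b+ cells, the myeloid gate, sorted from the pancreas of wild-type C57BL/6J mice aged 6 to 8 weeks. The mice had received an intraperitoneal (IP) injection of PBS (3 libraries) or of 1 mg WGP (3 libraries), and the pancreas was taken on day 7. WGP are hollow particles of β-glucan from the wall of Saccharomyces cerevisiae that have to be phagocytosed to act. Males and females were both used, the sex behind each library was not given, and the cells carried no transgene. The study asked whether the myeloid cells of WGP-treated mice kill tumor cells through reactive oxygen species (ROS). It reported ROS gene sets enriched in WGP in its RNA-seq data, and ROS inhibitors reduced the killing. The oxidase was not tested there as the source of the ROS. The comparison of WGP with PBS here covers the transcripts of an enzyme that makes superoxide, a form of ROS.

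In a resting phagocyte the oxidase is kept in separate pieces. Cybb (gp91phox, the catalytic subunit) and Cyba (p22phox) form a heterodimer in the membrane called cytochrome b558, whose assembly needs the endoplasmic reticulum chaperone Cybc1. Ncf1 (p47phox, the organizer) and Ncf4 (p40phox, which binds phosphatidylinositol 3-phosphate on phagosomes) wait in the cytosol. On stimulation Ncf1 is phosphorylated, the cytosolic subunits move to the membrane, and GTP-bound Rac joins them, after which electrons pass from NADPH to oxygen. Loss of CYBB, CYBA, NCF1 or NCF4 in humans causes chronic granulomatous disease, in which phagocytes fail to kill certain bacteria and fungi, and dominant-negative RAC2 causes a neutrophil immunodeficiency. Transcription of CYBB in myeloid cells is known to depend on PU.1, IRF1, IRF8 and interferon-γ.

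Promoter sequences from RefSeq (build GRCm38.p6, 250 bases before to 50 after the annotated start) were at hand for 3 of the 5 genes. They are shown because Cybb, Cyba and Ncf1 had higher transcript levels in every WGP library than in any PBS library, while their windows hold different motifs. All 3 lie on the minus strand and are written 5′ to 3′ along the gene. Capitals mark matches on either strand to an ISRE-type motif (GAAA and GAAA with any 2 bases between them, the core of the interferon-stimulated response element) or to an ETS-IRF composite motif (GGAA and GAAA with any 2 bases between them).
Cybb, chrX:9469275-9469574: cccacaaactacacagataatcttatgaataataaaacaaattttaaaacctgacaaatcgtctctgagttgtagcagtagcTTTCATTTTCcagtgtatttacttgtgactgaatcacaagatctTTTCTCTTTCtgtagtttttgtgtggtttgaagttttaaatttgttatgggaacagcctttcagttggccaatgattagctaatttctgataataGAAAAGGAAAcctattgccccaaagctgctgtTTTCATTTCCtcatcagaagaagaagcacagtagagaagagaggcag
Ncf1, chr5:134229576-134229875: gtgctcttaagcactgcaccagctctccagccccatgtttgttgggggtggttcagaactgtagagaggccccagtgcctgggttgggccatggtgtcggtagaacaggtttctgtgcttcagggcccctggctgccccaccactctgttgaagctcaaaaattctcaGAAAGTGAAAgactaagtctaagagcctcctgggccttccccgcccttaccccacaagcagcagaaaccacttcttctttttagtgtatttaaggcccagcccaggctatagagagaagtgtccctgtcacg
Cyba, chr8:122432891-122433190: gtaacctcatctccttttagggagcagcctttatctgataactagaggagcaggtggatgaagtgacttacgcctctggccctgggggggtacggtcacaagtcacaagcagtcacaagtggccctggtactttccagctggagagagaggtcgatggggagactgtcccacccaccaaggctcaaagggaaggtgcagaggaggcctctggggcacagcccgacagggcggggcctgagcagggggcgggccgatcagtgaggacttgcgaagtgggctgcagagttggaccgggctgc

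The Cybb window held 3 ISRE-type matches, which began 168, 124 and 29 bases before the start, and 1 composite match that began at base 4 after it. The window also held 1 CCAAT box and 1 ETS core (GAGGAA, read on the opposite strand), the latter overlapping the composite match. The Ncf1 window held 1 ISRE-type match that began 82 bases before the start, and it overlapped a GAS match (TTC and GAA with any 3 bases between them, the gamma-activated sequence). None of the 5 motifs was found in the Cyba window. Over 32851 mouse promoters of the same length, 3.44% held the ISRE-type motif, 2.72% the composite motif, 8.3% GAS, 37.4% CCAAT and 28.3% the ETS core. The RefSeq start of Cybb lies inside the longer Cybb gene body of the annotation used for the counts (GENCODE vM21). A match describes the letters and was not tested as a binding site.

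The libraries held 35334645 to 40580936 counts in the PBS group and 38240913 to 43341834 in the WGP group. Ptprc and Itgam, the genes of the sort antigens CD45 and CD11b, were present in every library, Itgam at 189 to 418 CPM. The gate held several myeloid populations, and their markers differed between the groups. Markers of Ly6C-high monocytes summed to 702 to 1176 CPM (counts scaled to the library total, here after TMM) in PBS and 3161 to 3564 in WGP, and 4 of 7 rose, among them Ccr2 and Plac8. Markers of resident macrophages summed to 10420 to 22378 CPM in PBS and 3938 to 6030 in WGP, and 8 of 11 fell, among them C1qa (C1qb had an adjusted p of 0.0585). Pan-myeloid genes summed to 9854 to 15782 CPM in PBS and 23685 to 25165 in WGP, and 6 of 7 rose, Lyz2 among them, while Csf1r did not pass. PBS replicate 1 stood apart from the other PBS libraries. It had the highest neutrophil marker sum (6643 CPM, against 2446 and 3778), the highest B cell marker sum (2499 CPM, against 378 and 653) and the lowest resident macrophage sum. It also had no counts from 4 Y-linked genes, which gave 8972 and 10063 counts in the other PBS libraries and at most 1 in any WGP library. In this PBS replicate 1 was like the WGP libraries. A difference between libraries with and without Y-linked counts can therefore be told apart from one by WGP only through PBS replicate 1.

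**Figure D1:**
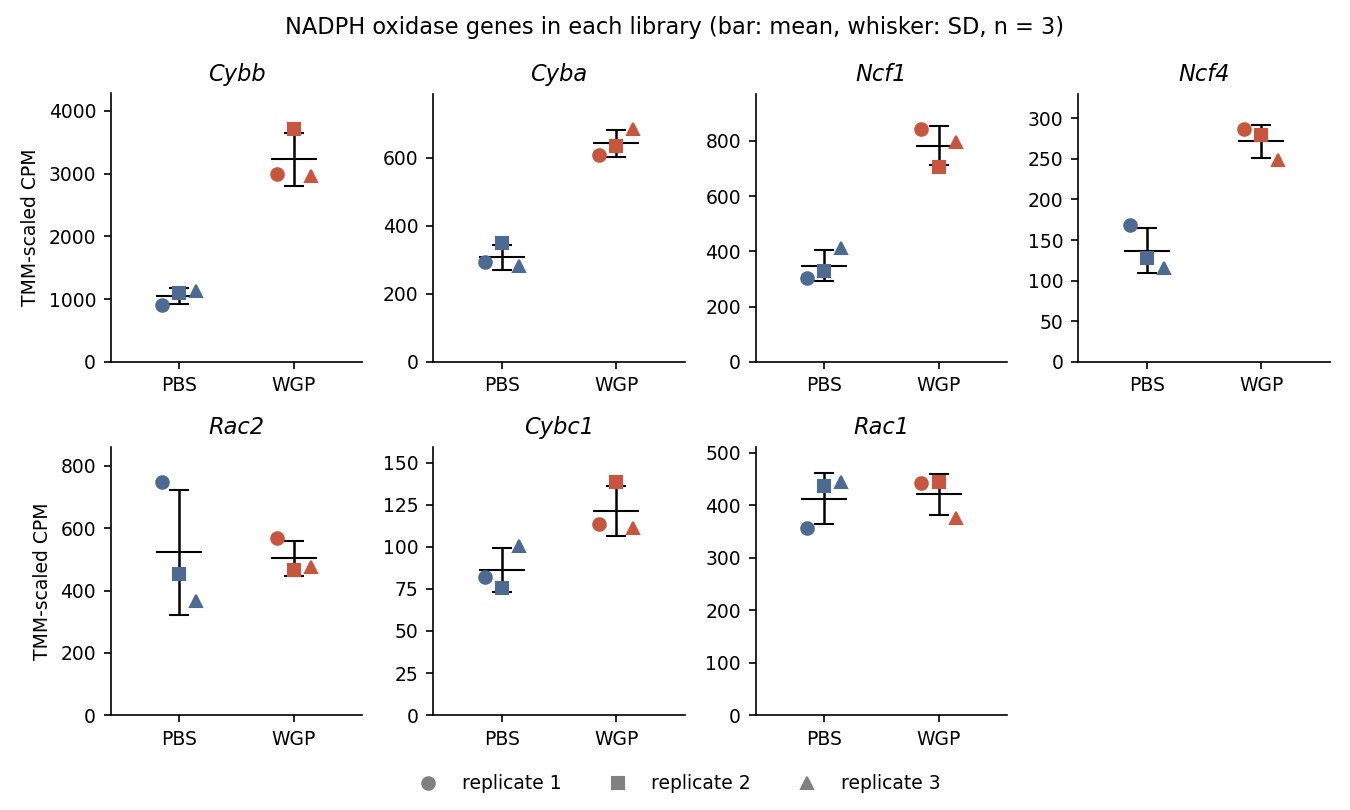
TMM-scaled CPM of the 5 subunit genes and of Cybc1 and Rac1 in each library (points; shape gives the replicate number), with group mean (bar) and SD (whisker), n = 3; each panel has its own axis from 0. All WGP points of Cybb, Cyba, Ncf1, Ncf4 and Cybc1 lie above all PBS points, and the highest Rac2 value belongs to PBS replicate 1.

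Of the 5 subunit genes, 4 rose in WGP libraries at an adjusted p of at most 0.05 (edgeR quasi-likelihood test, Benjamini-Hochberg over all genes tested), where 7.54% of all genes tested did so. None fell, where 6.81% of all genes did, and 14.4% of all genes passed in either direction. For 3 of the 5 the change was also at least 1 on the log2 scale, where 4.53% of all genes met both conditions. In 4 of the 5 every WGP library lay above every PBS library, which held for 16% of all genes tested. The median log2 fold change was 1.06 over the 5 genes and -0.05 over all genes. These are bulk values, so more cells that express a gene and more RNA per cell cannot be told apart.

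Cybb (ENSMUSG00000015340, chrX:9435252-9487771, GRCm38), the catalytic subunit, had the largest change of the 5. Its level was 903, 1102 and 1134 CPM in PBS replicates 1 to 3 and 2998, 3720 and 2969 CPM in WGP replicates 1 to 3. The groups did not overlap, and the lowest WGP library was above 2 times the highest PBS library. The mean went from 1046 ± 125 to 3229 ± 426 CPM (SD, n = 3), a fold change of 3.09, or 1.63 ± 0.17 on the log2 scale (SE), with an adjusted p of 0.000153 by edgeR. In rank of mean CPM among the genes tested, Cybb stood 81st in PBS and 20th in WGP.

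Cyba (ENSMUSG00000006519, chr8:122424776-122432930), the partner that stabilizes Cybb in the membrane and docks Ncf1, also rose. PBS libraries held 293, 350 and 282 CPM and WGP libraries 609, 635 and 687 CPM, again without overlap. The fold change was 2.09, or 1.06 ± 0.15 on the log2 scale (SE), with a 95% interval of 0.73 to 1.39 and an adjusted p of 0.000877 by edgeR. The chaperone Cybc1 (ENSMUSG00000039294), without which the heterodimer is not stable, had 82.0, 75.4 and 101 CPM in PBS and 114, 139 and 111 CPM in WGP. Its groups did not overlap, but the log2 fold change of 0.49 ± 0.17 had an adjusted p of 0.0782 and an unadjusted p of 0.0134 in the edgeR fit. Without PBS replicate 3 the Cybc1 change was 0.63 with an adjusted p of 0.0470 by edgeR. Cybc1 shares 68 of its 4213 exon bases with the opposite-strand gene Hexdc.

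Ncf1 (ENSMUSG00000015950, chr5:134220053-134229625), the organizer that is phosphorylated on activation, had 303, 329 and 410 CPM in PBS libraries and 845, 705 and 796 CPM in WGP libraries. Every WGP library was above every PBS library. The mean went from 348 ± 56.0 to 782 ± 70.9 CPM (SD, n = 3), a fold change of 2.25 with an adjusted p of 0.000896 by edgeR. Ncf1 shares 408 of its 3663 exon bases with Gtf2ird2 on the opposite strand, and the strand setting of the counting was not stated. Gtf2ird2 itself held 307 to 682 counts in a library, against 11657 to 32591 for Ncf1.

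Ncf4 (ENSMUSG00000071715, chr15:78244801-78262580), the subunit that senses phagosomal phosphoinositide, had the lowest mean CPM per kb of the 5 in both groups. PBS libraries held 168, 128 and 115 CPM and WGP libraries 287, 279 and 249 CPM, with no overlap. The log2 fold change was 0.99 ± 0.17 (SE; 95% interval 0.61 to 1.37), just under 1, with an adjusted p of 0.00322 by edgeR.

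Rac2 (ENSMUSG00000033220, chr15:78559167-78572783), the Rac GTPase of blood cells, was the member that did not pass. Its level was 749, 453 and 366 CPM in PBS and 569, 466 and 474 CPM in WGP. The groups overlapped, with PBS replicate 1 the highest and PBS replicate 3 the lowest of all 6 libraries. The fold change was 0.962 with a 95% interval of -0.59 to 0.48 on the log2 scale and an adjusted p of 0.924 by edgeR. Without PBS replicate 1, the library with the high neutrophil and B cell marker sums, the log2 fold change was 0.29 with an adjusted p of 0.273, and the part of those markers in the Rac2 value was not tested. In a fit that also took account of which libraries held Y-linked counts, where the group term rests on PBS replicate 1 as the PBS library without them, it was -0.57 with an adjusted p of 0.0820. Rac2 lies on the same chromosome as Ncf4, 296586 bases away.

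Rac1 (ENSMUSG00000001847), the widely expressed Rac that can also serve the oxidase, had 356, 436 and 444 CPM in PBS and 443, 445 and 376 CPM in WGP. The log2 fold change had a 95% interval of -0.31 to 0.37 and an adjusted p of 0.933 by edgeR, and its sign turned with library-total scaling and without PBS replicate 1, WGP replicate 1 or WGP replicate 2. Of its 4496 exon bases 2309 are shared with the opposite-strand gene Daglb, so the Rac1 level is uncertain.

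**Figure D2:**
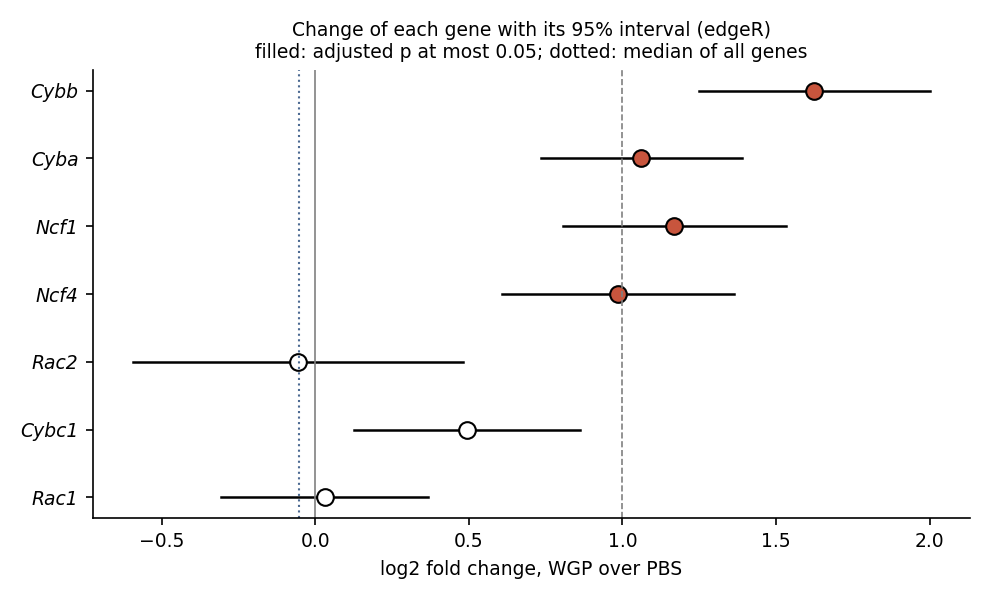
Log2 fold change of WGP over PBS (x axis) for each gene with its 95% interval from edgeR; filled points have an adjusted p of at most 0.05, the dashed line is at 1 and the dotted line is the median of all genes tested (-0.05). Cybb, Cyba, Ncf1 and Ncf4 lie from 0.99 to 1.63, and the intervals of Rac2 and Rac1 include 0.

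**Figure D3:**
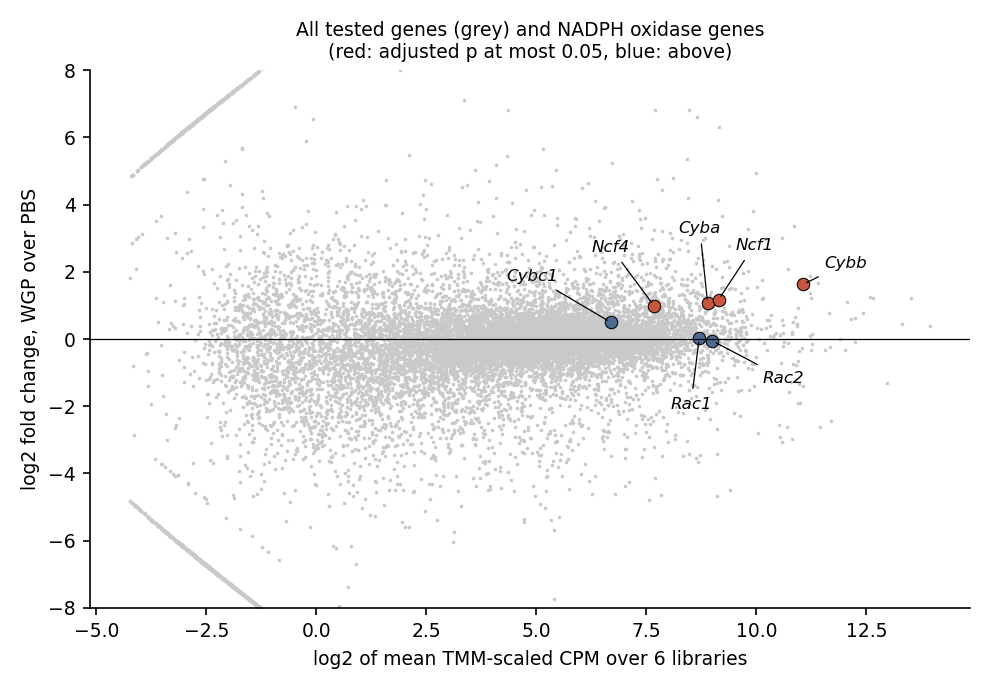
Log2 fold change of WGP over PBS against the log2 of mean TMM-scaled CPM for all genes tested (grey) and for the oxidase genes (red where the adjusted p is at most 0.05, blue otherwise); genes with counts in 1 group alone form the diagonal lines at low level, and the most extreme of them lie outside the axis. The oxidase genes sit toward the right of the plot, where CPM not divided by gene length is high, and Cybb is the point at 1.63.

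Levels of different genes can be compared only per length. Per kilobase of exon, Cyba stood highest in PBS at a mean of 297 CPM per kb, followed by Cybb at 180, Rac2 at 169, Ncf1 at 94.9 and Ncf4 at 67.9. Cybb and Rac2 overlapped between PBS libraries in this order, as did Ncf1 and Ncf4. In WGP the order was Cyba at 619 CPM per kb, Cybb at 556, Ncf1 at 213, Rac2 at 162 and Ncf4 at 135. Cyba and Cybb overlapped there, whereas Ncf1 (192 to 231), Rac2 (150 to 183) and Ncf4 (123 to 142) did not. The order depends on the length used. Per kilobase of coding sequence Rac2 had the highest mean in PBS, at 906 CPM per kb, but its range (635 to 1298) overlapped that of Cybb (528 to 663), and its highest value was that of PBS replicate 1. In WGP Cybb (1736 to 2175) lay above Cyba (1057 to 1192) on this scale, with no overlap.

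Ratios between 2 genes of 1 library do not depend on library scaling, and describe how the balance of the subunits differed. The Cybb to Cyba log2 ratio per exon length was -0.86, -0.83 and -0.48 in PBS and -0.18, 0.07 and -0.37 in WGP. Every WGP ratio was above every PBS ratio, with a mean difference of 0.56. Cybb was also higher relative to Ncf1 (difference 0.45) and to Ncf4 (0.62), again without overlap. The first of these differences was 0.27 without WGP replicate 2, and the second was 0.36 without PBS replicate 1. The ratios among Cyba, Ncf1 and Ncf4 differed by -0.11, 0.06 and 0.17 and overlapped between the groups. Relative to Rac2, each of the other 4 members was higher in every WGP library than in any PBS library, by 1.62 for Cybb, 1.06 for Cyba, 1.17 for Ncf1 and 1.00 for Ncf4. The Ncf1 to Rac2 ratio was below 0 in the 3 PBS libraries (-1.54, -0.70 and -0.07) and above 0 in the 3 WGP libraries (0.33, 0.36 and 0.51). This change of sign belongs to exon length. Per coding length Rac2 (808 to 985 CPM per kb) lay above Ncf1 (565 to 677) in WGP too. Of 11 pairs compared, 7 did not overlap, each with an exact permutation p of 0.1, the smallest that 3 against 3 libraries can give, and an adjusted p of 0.157. No ratio therefore passed, and the design could not have let one pass.

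Ratios to Ptprc, the gene of CD45, were added after the values had been seen. Ptprc itself rose, from 985 ± 50.1 to 1610 ± 119 CPM (SD, n = 3), a log2 change of 0.71. The result depends on the reference gene. Of the other pan-myeloid genes, Itgb2 rose by 1.22, Lyz2 by 1.21, Itgam by 0.79, Fcer1g by 0.59 and Tyrobp by 0.53. Csf1r had a change of -0.31 and did not pass. Ratios to these genes were not taken. Against Ptprc the log2 ratio was higher in WGP by 0.92 for Cybb and 0.47 for Ncf1 without overlap, and by 0.36 for Cyba and 0.30 for Ncf4 with overlap. Rac2 was lower relative to Ptprc in every WGP library, by 0.70, with PBS replicate 1 farthest from the WGP libraries. The ratios were 2.08, 1.47 and 1.19 in PBS replicates 1 to 3 and 0.94, 0.84 and 0.86 in WGP replicates 1 to 3.

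**Figure D4:**
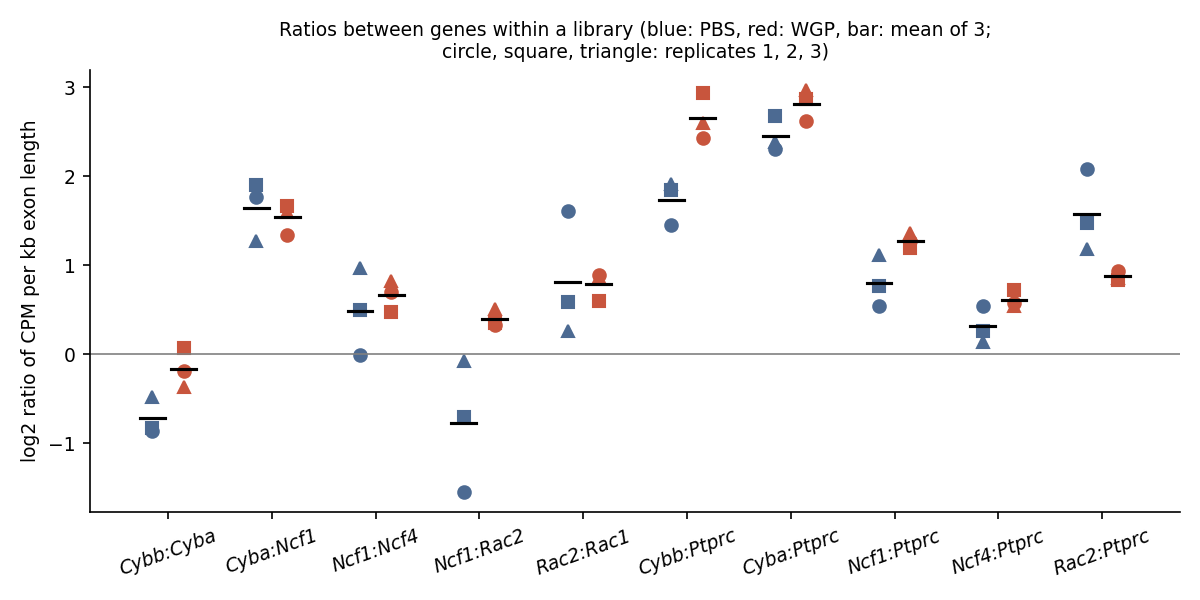
Log2 ratio of CPM per kb of exon for 10 pairs of genes within each library (blue, PBS; red, WGP; bar, mean of 3; circle, square and triangle, replicates 1, 2 and 3). Cybb to Cyba, Ncf1 to Rac2 and, of the 5 ratios to Ptprc, those of Cybb, Ncf1 and Rac2 separate the groups, whereas Cyba to Ncf1, Ncf1 to Ncf4, Rac2 to Rac1, Cyba to Ptprc and Ncf4 to Ptprc overlap.

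The members also differed in their spread between libraries of 1 group. The coefficient of variation in PBS lay between 11.8% for Cyba and 20.2% for Ncf4 in 4 of the members and was 38.4% for Rac2. The Rac2 spread rests on PBS replicate 1, at 749 CPM against 453 and 366 in PBS replicates 2 and 3. In WGP the coefficient of variation was between 6.16% for Cyba and 13.2% for Cybb, and Rac2 was at 11.3%. Across the 6 libraries, which share the group difference, log2 CPM of Cybb had a Pearson r of 0.97 with Cyba, 0.96 with Ncf1 and 0.90 with Ncf4. For Rac2 r was -0.13 with Cybb, 0.32 with Ncf4 and -0.65 with Rac1. These r values are descriptions over 6 points. PBS replicate 1 had both the highest Rac2 and the lowest Rac1 value (749 and 356 CPM), and r without it was not computed.

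Genes whose log2 CPM followed each member most closely were taken from 8568 tested genes with a mean of at least 10 CPM, by Pearson r over the 6 libraries. For Cybb they were Slamf8 (r = 0.9997), Slfn5 (0.999) and C1rl (0.999), with log2 fold changes of 3.23, 1.40 and 2.74. Slamf8 is a membrane receptor of the SLAM family found on macrophages. For Cyba they were Dhx58, an RNA sensor of the RIG-I family, Lmo4 and Rab43. For Ncf1 they were Otub1, a deubiquitinase, Snx19 and Pitpnm1, and for Ncf4 they were Klrb1b, Rab27a, a GTPase of granule secretion, and Aurkaip1. Rac2 was followed by Nlrc4 (r = 0.990), the scaffold of an inflammasome, Ubxn2a and Mndal, with log2 fold changes of -0.02, 0.01 and -0.05. The lists of the 5 members had no gene in common, but with 3 genes kept for each this is no measure of how alike the members were.

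The other NADPH oxidases were at or near 0. Of 9 genes for Nox1, Nox3, Nox4, Duox1, Duox2 and their partners, Nox3, Duoxa1, Duoxa2 and Noxa1 had 0 counts in all 6 libraries. Nox1, Nox4, Duox1 and Duox2 were each seen in 1 library, at no more than 1.98 CPM. Noxo1, the organizer of Nox1, was at 3.64 to 5.69 CPM in PBS and 1.42 to 2.44 CPM in WGP, with an adjusted p of 0.280 by edgeR. Of the 5 genes that could be tested, 0 passed by edgeR, DESeq2 or limma-voom, and 0 had an unadjusted edgeR p of at most 0.05.

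Rac has to be loaded with GTP before it joins the complex, and its regulators were described from a list of 12 genes, of which 2 rose and 10 did not pass. Abr, a GTPase-activating protein that switches Rac off, rose from 124 ± 5.43 to 385 ± 29.2 CPM (SD, n = 3), a log2 fold change of 1.64 with an adjusted p of 4.5e-05 by edgeR. Vav1, an exchange factor that switches Rac on, rose from 185 ± 10.7 to 298 ± 13.8 CPM, a log2 change of 0.69. Arhgdia and Arhgdib, which hold Rac in the cytosol, and Dock2, a Rac exchange factor, did not pass, with log2 changes of 0.23, 0.19 and -0.04. Among 4 related GTPases, Rac3 fell, from 14.8 ± 2.42 to 1.41 ± 0.43 CPM, and Rac1, Cdc42 and Rap1a did not pass.

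The kinases and lipid enzymes that act on the oxidase were a list of 16 genes, of which 5 rose and 1 fell. Prkcd, the protein kinase C that phosphorylates Ncf1, had 466, 484 and 541 CPM in PBS and 1203, 910 and 1125 CPM in WGP. Its groups did not overlap, and the log2 change was 1.12 ± 0.16 with an adjusted p of 0.000999 by edgeR. Prkca, a classical isoform, fell by 2.06 on the log2 scale from a low level, 22.3 ± 4.81 CPM in PBS. Prkcb, another classical isoform, named here after its values were seen, was at 154 ± 34.8 CPM in PBS and 103 ± 14.1 CPM in WGP. Every WGP library was below every PBS library, but the log2 change of -0.58 had an adjusted p of 0.0689 by edgeR. Pik3r5, a regulatory subunit of phosphoinositide 3-kinase γ, rose by 1.33, and Pla2g4a, the phospholipase A2 that releases arachidonic acid, rose by 1.28. The remaining genes that rose, named here after their values were seen, were Pik3cd (0.65) and Plcg2 (0.59). Those with the highest CPM that did not pass were Mapk14, Akt1 and Pak2, with changes of -0.10, 0.19 and 0.27. The number that rose was 3 with library-total scaling and without PBS replicate 2, WGP replicate 1 or WGP replicate 3. The number that fell was 2 without PBS replicate 3, and also with library-total scaling, DESeq2 and the Y-linked covariate.

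Of 8 tested transcription factors linked to oxidase genes 3 rose and 5 did not pass. Irf1, an interferon-inducible factor, had 267, 212 and 149 CPM in PBS and 930, 1284 and 872 CPM in WGP, a log2 change of 2.30 ± 0.24 (SE) with no overlap between the groups. Irf8, a partner of PU.1 in monocytes, rose by 0.96, and Spi1, the gene of PU.1, by 0.51 with an adjusted p of 0.0256 by edgeR. The Spi1 call was lost without PBS replicate 2, PBS replicate 3 or any 1 of the WGP replicates, where the adjusted p was between 0.0554 and 0.103, and also with library-total scaling (0.0678) and the Y-linked covariate (0.0672). With that covariate the Irf8 change was 0.78 with an adjusted p of 0.0637, so that 1 of the 8 factors, Irf1, passed in that fit. Rela, Crebbp and Cebpa did not pass, with log2 changes of 0.16, -0.34 and -0.07, and Hoxa10 had no counts.

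NADPH, the electron donor, comes largely from the pentose phosphate pathway. Of 7 supply genes 3 rose and 4 did not pass. Pgd, the second NADPH-producing step, had 229, 220 and 196 CPM in PBS and 460, 489 and 462 CPM in WGP, a log2 change of 1.13 ± 0.14 with an adjusted p of 0.000382 by edgeR. G6pdx, the first and rate-limiting step, had 135, 136 and 173 CPM in PBS and 237, 230 and 236 CPM in WGP, a change of 0.66. Taldo1, of the non-oxidative branch, rose by 0.71, and Tkt, the gene of the list with the highest CPM, had a change of 0.50 with an adjusted p of 0.0609. Pgd alone of the 3 stayed past the threshold without PBS replicate 2, WGP replicate 1 or WGP replicate 3, where G6pdx had adjusted p values of 0.0742, 0.0501 and 0.0533 and Taldo1 of 0.0716, 0.0723 and 0.0660. Taldo1 also lost its call without PBS replicate 3 (adjusted p of 0.0515), with library-total scaling (0.0552) and with the Y-linked covariate, where its log2 change was 0.45 with an adjusted p of 0.189.

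Of 3 genes for ion transport and restraint of the oxidase, 0 passed by edgeR, DESeq2 or limma-voom, and 2 (Hvcn1 and Nrros) had an unadjusted edgeR p under 0.05. Hvcn1, the proton channel that balances the charge the oxidase moves, had 145, 67.1 and 68.9 CPM in PBS and 130, 199 and 162 CPM in WGP, with PBS replicate 1 again the high one. Its log2 change was 0.81 with an adjusted p of 0.103 by edgeR, and 1.27 with an adjusted p of 0.00155 without PBS replicate 1. With the Y-linked covariate, whose group term rests on PBS replicate 1, the Hvcn1 change was 0.17 with an adjusted p of 0.712. Nrros, which binds Cybb and promotes its degradation, was at 307 to 446 CPM in PBS and 481 to 591 CPM in WGP, a log2 change of 0.44 with an adjusted p of 0.140 by edgeR, and of 0.80 with an adjusted p of 0.0191 with the Y-linked covariate. With 1 library left out the Nrros change was 0.28 to 0.54. Clcn3, a chloride transporter of endosomes, had a log2 change of -0.31.

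**Figure D5:**
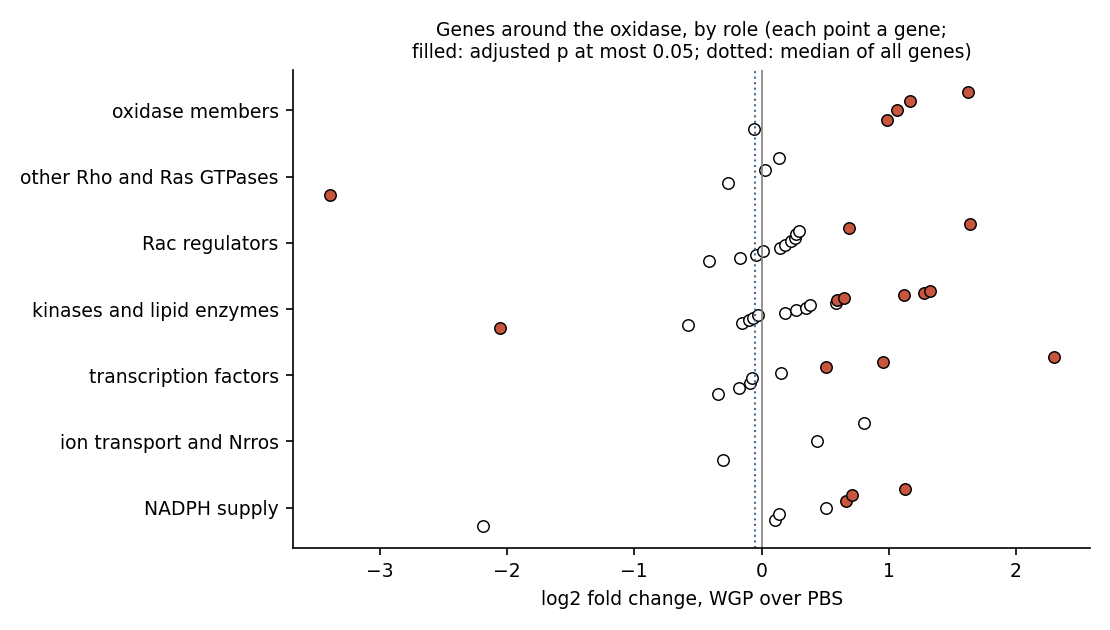
Log2 fold change of WGP over PBS (x axis) for each tested gene of 7 groups, the 5 members at the top and 6 lists around the oxidase below (filled, adjusted p of at most 0.05 by edgeR; dotted line, median of all genes, -0.05); the vertical spread inside a group serves only to part the points. Irf1 at 2.30 is the highest point and Rac3 at -3.40 the lowest.

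The remaining marker lists show what else moved with the members. B cell markers fell in 6 of 6 genes, Ms4a1 and Cd79a having the highest CPM, from sums of 378 to 2499 CPM in PBS to 89.1 to 177 CPM in WGP. Acinar enzymes, from the exocrine pancreas, fell in 8 of 8 tested genes, Pnlip and Ctrb1 having the highest CPM, from sums of 1257 to 4742 CPM to 307 to 544 CPM. Neutrophil markers summed to 2706 to 2877 CPM in WGP, inside the PBS range, and S100a9 and Ngp did not pass, while 2 of the 12 rose and 2 fell. Eosinophil, conventional dendritic cell, natural killer and T cell lists each summed to less than 254 CPM in every library, and 1 gene of each passed: Ear2, Cd209a and Gzma fell, and Cd8a rose. Cybb, Cyba, Ncf1 and Ncf4 are expressed by monocytes, macrophages and neutrophils alike, and the part of cell composition in their rise was not tested. Without PBS replicate 1 the same 4 members passed.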

How the data were processed

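Pancreatic CD45+CD11b+ cells from mice given PBS (3 libraries) or WGP (3 libraries) were measured by polyA RNA-seq. Per the labels and the study's methods, the authors aligned single-end reads to mm10 (GRCm38.p6) with STAR 2.6, counted them per gene with HTSeq 0.10.0 and compared groups with DESeq2; they deposited raw counts for 21780 genes, of which 21700 are protein-coding in GENCODE vM21. The annotation release, strand setting and duplicate handling are not given in the sources used here. Without molecular identifiers, reads are not independent molecules.

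Groups came from the labels. Genes with at least 10 summed RLE-normalized counts (14429) were tested in R 4.3.3 with edgeR 4.0.16 (TMM, quasi-likelihood, Benjamini-Hochberg over all genes tested); passed means adjusted p at most 0.05. Intervals are 95% intervals from that fit's moderated degrees of freedom and SE. CPM are TMM-scaled. Ratios were compared by exact two-sided permutation tests in scipy 1.17.1, adjusted over 11 pairs. Alternatives used RLE, upper-quartile or library-total scaling, DESeq2 1.42.0, limma 3.58.1 (voom), other filters, a replicate block, a covariate for Y-linked counts (at least 100) and each replicate left out. The edgeR, DESeq2 and limma fits were tested on simulated data. Motifs were searched in both strands of RefSeq promoters.

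The members and lists were chosen with earlier results of these data known; some genes of the lists are not reported here. Named were the members, Cybc1 and Rac1; of each pathway list up to 4 passed genes by p and up to 3 others by level; of each marker list the 2 most abundant genes; and the 3 genes most like each member. p-values measure the spread between these libraries, which may be partly technical. Same-numbered libraries of the groups did not deviate together (r from -0.07 to 0.06), so the numbers were not taken as pairs.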

Additional observations from a re-analysis of the deposited data

How the results depend on the processing

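Under 16 alternatives the same 4 members passed with WGP higher, with log2 changes of 1.51 to 1.84 for Cybb, 0.96 to 1.16 for Cyba, 1.07 to 1.37 for Ncf1 and 0.69 to 1.16 for Ncf4, and adjusted p values of at most 0.0351. The number of members that also changed by at least 1 on the log2 scale was 2 to 4, and 2 with library-total scaling. Rac2 did not pass in any of the 16. Its log2 change was 0.0051 with limma-voom, 0.0049 with the replicate block and -0.26 to 0.29 with 1 library left out, and without PBS replicate 1 it was 0.29. Rac1 was at -0.068 with library-total scaling and at -0.066 to 0.11 with 1 library left out, below 0 without PBS replicate 1 (-0.066), WGP replicate 1 (-0.0055) or WGP replicate 2 (-0.0089). The causes were not tested. With 1 library left out the difference of the log2 ratio was 0.44 to 0.68 for Cybb to Cyba, 0.27 to 0.55 for Cybb to Ncf1 and 0.36 to 0.80 for Cybb to Ncf4. Library-total scaling moved the median log2 change of all genes from -0.05 to -0.16.

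Of the 70 pathway genes tested, 15 rose (21.4%, against 7.54% of all genes tested) and 4 fell (3 to 6 under the alternatives). The number that rose was 9 to 17 with 1 library left out (9 without PBS replicate 2 and without WGP replicate 3). Over all genes 2071 passed (1417 to 2681 under the alternatives; 1417 without PBS replicate 2). With the replicate block 1947 passed. Not every PBS library correlated best with the WGP library of its own number, and the block changed the call of Spi1 among the named genes (adjusted p 0.0619).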

Other observations

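Enzymes that act on reactive oxygen species, whether or not these come from the oxidase, were counted from a list of 6 genes, of which 1 rose and 1 fell. The number that fell was 2 without PBS replicate 1, with library-total scaling and with DESeq2, and 0 with limma-voom. Sod2, the mitochondrial superoxide dismutase, had 63.1, 83.6 and 68.0 CPM in PBS and 484, 720 and 450 CPM in WGP, a log2 change of 2.95 ± 0.22 (SE) with an adjusted p of 2.0e-05 by edgeR. The cytosolic Sod1 and the catalase gene Cat did not pass by edgeR with all libraries, with changes of -0.30 and -0.40. Mpo, the granule peroxidase of neutrophil precursors, was at 213, 27.9 and 9.04 CPM in PBS and at 0.87 to 2.00 CPM in WGP. Its adjusted p was 0.0049 by edgeR and 0.404 by limma-voom, and PBS replicate 1 held most of its counts.

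The oxidase also takes part in LC3-associated phagocytosis, in which LC3 is attached to the phagosome. Of 8 genes of that route 1 rose and 1 fell. Rubcn, the gene of Rubicon, which stabilizes the oxidase on the phagosome, had 114, 119 and 114 CPM in PBS and 54.8, 57.4 and 55.1 CPM in WGP, a change of -1.05 ± 0.14 (SE) on the log2 scale with an adjusted p of 0.000550 by edgeR. Rubcn thus fell in every WGP library while 4 subunits of the complex rose. Atg5, of the LC3 conjugation machinery, rose from 32.4 ± 3.13 to 56.1 ± 7.64 CPM (SD, n = 3), with an adjusted p of 0.0163 that was 0.0747, 0.0586 and 0.0627 without PBS replicate 2, WGP replicate 2 or WGP replicate 3, and 0.129 with the Y-linked covariate. Uvrag, Becn1 and Map1lc3b did not pass, with log2 changes of 0.01, 0.04 and -0.33.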
